A study of Mus musculus with 3 samples.

Results

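The 40 genes described here encode enzymes, carriers and binding proteins of fatty acid oxidation in mitochondria and peroxisomes, and were found by gene symbol among 37620 Ensembl gene identifiers. Of these genes, 21 act in mitochondrial oxidation, 15 in peroxisomes, 1 (Bdh1) in ketone body synthesis and 3 in the cytosol or at the cell surface. Bdh1 is also a mitochondrial enzyme, but it is counted apart from the 21 mitochondrial genes throughout. Their RNA was measured by mRNA sequencing in primary hepatocytes of C57BL/6 mice, labelled passage 1, which had been plated on gelatin with serum and insulin. Tauroursodeoxycholic acid (TUDCA), a taurine-conjugated bile acid also used as a chemical chaperone, had been given to the cells of 2 libraries at a labelled dose of 100 mM for 24 h. They were set against 1 library of cells given the solvent DMSO, for which no time is stated, so a difference in time and an effect of TUDCA cannot be told apart. The series speaks of independent experiments without saying which library belongs to which. Each p-value sets the TUDCA minus DMSO difference against a spread taken from the TUDCA pair alone. Whether that spread holds more than technical variation is therefore not known. The labels used here state no age, sex or number of mice.

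Hepatocytes burn fatty acids in a pair of compartments. Long chains are activated with coenzyme A, carried into mitochondria as carnitine esters and shortened by repeated rounds of dehydrogenation, hydration, dehydrogenation and thiolysis, with electrons passed to the respiratory chain and surplus acetyl-CoA turned into ketone bodies. Peroxisomes shorten very long and branched chains and the side chains of bile acid precursors, make hydrogen peroxide on the way, and hand the shortened chains over to mitochondria. Many of these genes are induced in the fasted liver by lipid-sensing nuclear receptors.

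The values are RPKM (reads per gene length and library size), and differences are between log2(RPKM + 1) values, TUDCA minus DMSO, which understates the fold of low genes. The read totals recovered from the RPKM steps were 9757547 and 10575699 for TUDCA replicates 1 and 2 and 10774289 for DMSO. Of the 40 genes, 39 had a mean of at least 1 RPKM and were tested with all 11300 such genes by limma, at a Benjamini-Hochberg adjusted p of 0.05. The test took its spread from the pair of TUDCA libraries, pooled over genes of similar level, and assumed that the lone DMSO library varied like them. Both differences of a gene use the same DMSO library. With 3 libraries an exact permutation test of 1 gene cannot go below p = 0.333, so none was run. Over all genes tested the SD of the log2 differences was 0.414 and 0.365 for TUDCA replicates 1 and 2 against DMSO, and 0.316 between the TUDCA libraries. Summed hepatocyte markers stood at 13503 and 11782 RPKM with TUDCA and at 10545 RPKM in DMSO, with Fgb and Hnf4a called higher among 10. Much of that difference lay in Fgb and Alb. Fgb was at 2530 and 1885 RPKM with TUDCA and 914 RPKM in DMSO. Alb, which was not called, was at 7177 and 6111 RPKM with TUDCA and 5771 RPKM in DMSO. Apoa1 and Ass1 lay below DMSO in both TUDCA libraries, and the other hepatocyte markers above it. Summed macrophage and Kupffer cell markers were at 229.8 and 239.6 RPKM with TUDCA and at 243.1 RPKM in DMSO, with none of 8 called. Stellate cell, endothelial, and brown fat and muscle markers summed to between 2.78 and 14.6 RPKM in any library, with Myh6 at 0 in all. Cholangiocyte markers summed to 803.8 and 627.4 RPKM with TUDCA and to 419.2 RPKM in DMSO, nearly all of it Spp1, which was called higher, while Cftr was at 0 in all. The part of these markers in the results below was not tested. In bulk RNA, fewer cells of a type and less RNA per cell cannot be told apart.

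Of the 39 genes tested, 4 rose with TUDCA and none fell. These were the peroxisomal thiolase Acaa1b, the peroxisomal carnitine octanoyltransferase Crot, the ketone body enzyme Bdh1 and the pantetheinase Vnn1, at 2.42 to 3.08 times the DMSO level. The 4 genes are 10.3% of those tested, against 1.77% called higher and 0.876% called lower among all genes (2.65% in either direction). Because the genes were chosen with earlier results of these data known, this share and those below describe the list and test nothing. By a rule of size without a test, at least 2-fold on the log2(RPKM + 1) scale in each TUDCA library, 3 of the 39 genes were higher (Acaa1b, Crot and Vnn1), against 0.77% of all genes. An unadjusted limma p below 0.05 was found for 9 of the 39 genes, all higher. Over all genes the share was 10.8%, which counts both directions. None of the 21 genes of the mitochondrial oxidation group, which leaves out Bdh1, was called in either direction. The calls hold under a filter of 1 or 5 RPKM and were lost without a filter (adjusted p of 0.502 to 0.588), where limma called 0 of 19146 genes and 1696 had an unadjusted p below 0.05. At the filter of 1 RPKM, voom on whole reads called the same 4 genes. On simulated data the limma fit called more unchanged genes than its threshold allows. That simulation used the same assumed spread for every gene, not the spread of these libraries. The adjusted p-values here and below may therefore be too small, and calls near the threshold are the least certain.

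**Figure D1:**
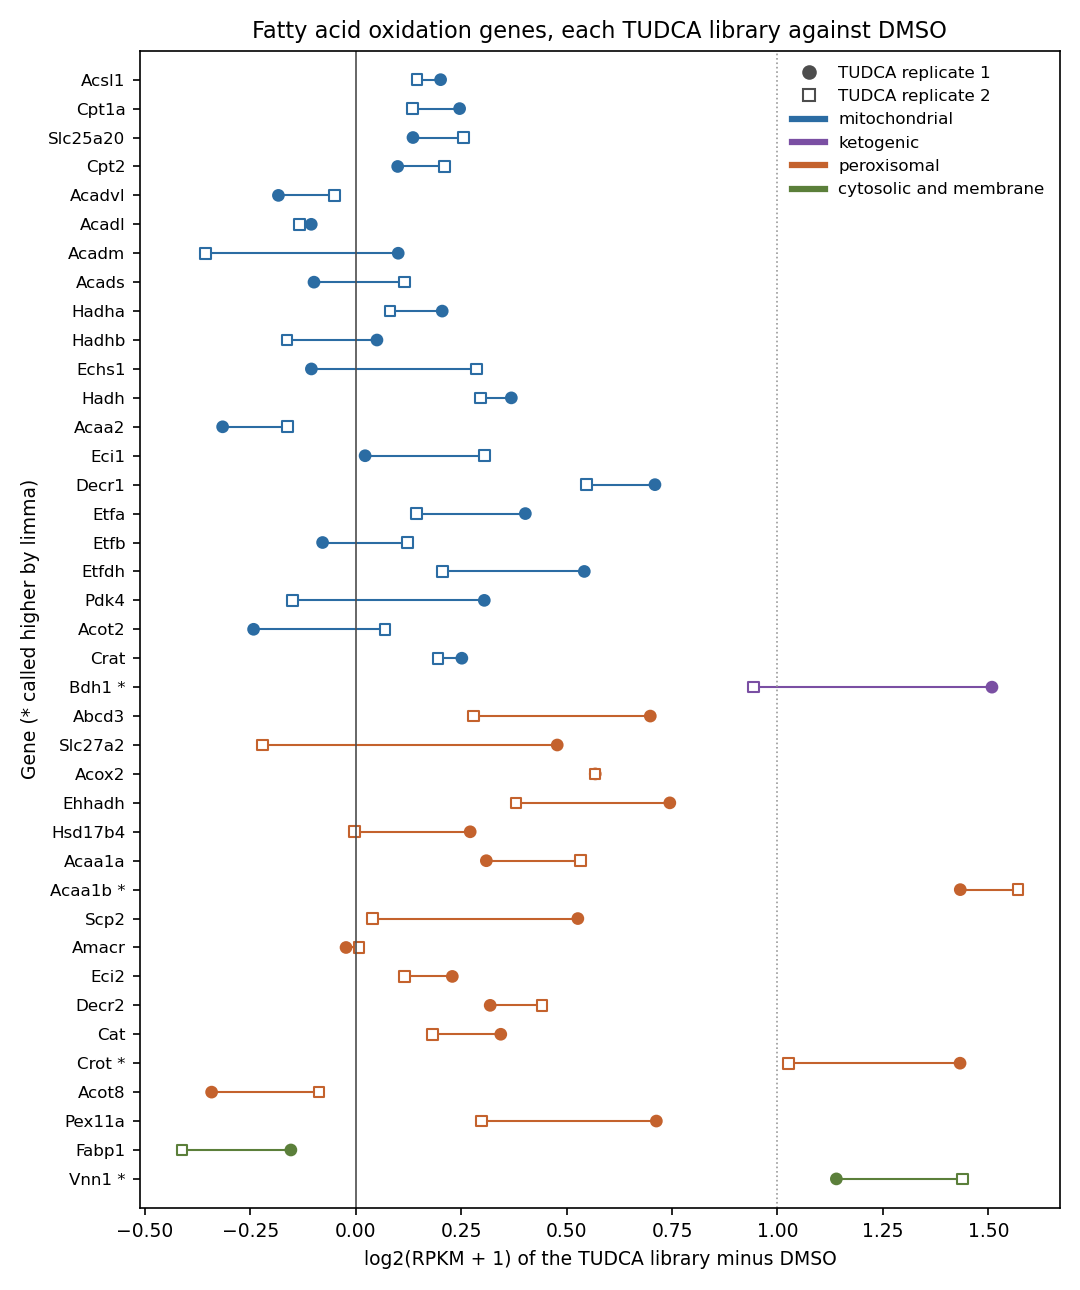
Difference in log2(RPKM + 1) of each TUDCA library from the DMSO library for the 39 genes tested, grouped by compartment; circles are TUDCA replicate 1, squares TUDCA replicate 2, the solid line is the DMSO level and the dotted line a difference of 1. The genes marked with an asterisk (Bdh1, Acaa1b, Crot and Vnn1) lie at or near the dotted line or beyond it in both libraries, and mitochondrial genes lie on both sides of the DMSO level.

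Acaa1b and Acaa1a encode near-identical thiolases, which cleave the shortened chain in the last step of the peroxisomal cycle. Their longest coding sequences in GENCODE M21, each of 1272 bases, were identical at 96.5% of positions, with an identical run of up to 327 bases. The following 60 bases of each (coding positions 259 to 318, chromosome 9) are the stretch with most differences, and the 11 capitals mark the bases that differ.
Acaa1b: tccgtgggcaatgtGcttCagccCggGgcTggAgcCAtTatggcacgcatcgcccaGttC
Acaa1a: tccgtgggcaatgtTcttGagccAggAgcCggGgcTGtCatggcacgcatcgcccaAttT
Reads from such a stretch can be assigned to 1 gene, and reads from the identical runs cannot. Of all 50-base windows of Acaa1b transcripts, 39.6% also stood in transcripts of another gene, and 30.5% in those of Acaa1a.

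Acaa1b (ENSMUSG00000010651) had 21.6 and 23.8 RPKM in TUDCA replicates 1 and 2 and 7.36 RPKM in DMSO. The log2 difference was 1.502 ± 0.26 (SE, limma adjusted p = 1.68e-06). Both TUDCA libraries lay above DMSO by far more than they differed from each other. Its relative Acaa1a had 77.3 and 90.3 RPKM with TUDCA and 62.2 RPKM in DMSO and was not called (log2 difference 0.42 ± 0.22, limma adjusted p = 0.469). The share of Acaa1b in the summed RPKM of the pair was 21.8% and 20.9% with TUDCA, against 10.6% in DMSO. How shared reads were assigned or dropped is not stated in the labels, and it can move the values of both genes, their share and their sum. The summed RPKM of the pair came to 98.8 and 114.2 RPKM with TUDCA and to 69.5 RPKM in DMSO, a ratio of 1.53.

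Crot (ENSMUSG00000003623) transfers medium chains to carnitine so that they can leave the peroxisome. It had 70.7 and 53.1 RPKM in the TUDCA libraries and 25.5 RPKM in DMSO. The log2 difference was 1.23 ± 0.23 (limma adjusted p = 1.04e-05). Crot was the most abundant of the 4 genes and the TUDCA libraries lay apart, at 1.43 and 1.03 on the log2 scale over DMSO. The SE is pooled over genes and does not widen with that gap, so it and the adjusted p of Crot may be too small. A single pair of libraries cannot show whether they are. After median centring of the libraries only 2 genes passed the rule of size, Acaa1b and Vnn1.

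Bdh1 (ENSMUSG00000046598) is the mitochondrial dehydrogenase that interconverts acetoacetate and beta-hydroxybutyrate, the last step of ketone body synthesis. It had 29.6 and 19.7 RPKM with TUDCA and 9.77 RPKM in DMSO. The log2 difference was 1.23 ± 0.26 (limma adjusted p = 0.00017), made of 1.51 in TUDCA replicate 1 and 0.94 in TUDCA replicate 2. Both values lie above DMSO, and the gap between the TUDCA libraries was smaller than either difference. That gap was 0.57, against a median gap of 0.21 over the members tested. The pooled SE does not widen with it, so the SE and adjusted p of Bdh1 may be too small. A share of 11.1% of its 50-base windows also stood in the transcripts of Gm15743, and whether reads were counted by strand is not stated in the labels.

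Vnn1 (ENSMUSG00000037440) is a cell surface enzyme that releases pantothenic acid, the precursor of coenzyme A, from pantetheine. It had 26.2 and 32.4 RPKM in the TUDCA libraries and 11.3 RPKM in DMSO. The log2 difference was 1.29 ± 0.25 (limma adjusted p = 3.14e-05). None of its 50-base windows stood in a transcript of another gene.

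**Figure D2:**
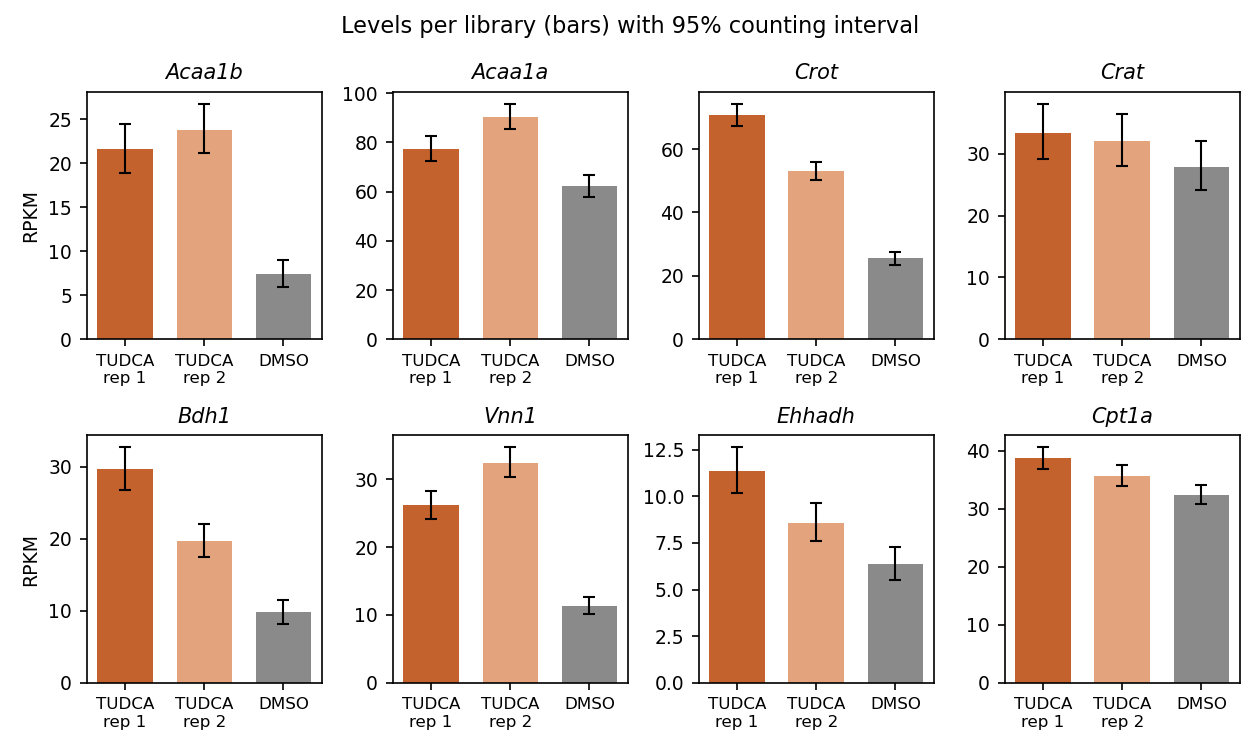
RPKM of 8 genes in each library, from left to right TUDCA replicate 1, TUDCA replicate 2 and DMSO; bars are single libraries and whiskers the exact Poisson 95% interval, which covers counting error only. For Acaa1b, Crot, Bdh1 and Vnn1 the intervals of both TUDCA libraries lie above that of DMSO, and for Crat all 3 intervals overlap.

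Counting error was small beside these differences. By the smallest whole reads that give the deposited RPKM, Acaa1b had 239 and 286 reads with TUDCA and 90 in DMSO, and its exact Poisson 95% intervals were 18.9 to 24.5 and 21.1 to 26.8 RPKM with TUDCA and 5.92 to 9.05 RPKM in DMSO. For Bdh1 the intervals were 26.8 to 32.7 and 17.5 to 22.1 RPKM with TUDCA and 8.23 to 11.5 RPKM in DMSO. These intervals cover counting error only, not the difference between cell preparations.

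The straight-chain branch of peroxisomal oxidation otherwise held values above DMSO that did not pass. Ehhadh, the bifunctional enzyme that hydrates and dehydrogenates the chain, had 11.3 and 8.58 RPKM with TUDCA and 6.37 RPKM in DMSO (log2 difference 0.56 ± 0.28, limma adjusted p = 0.448). Decr2, which reduces double bonds of unsaturated chains, had 56.6 and 61.8 RPKM with TUDCA and 45.2 RPKM in DMSO. Eci2, an isomerase of double bonds, had 52.1 and 48.0 RPKM with TUDCA and 44.3 RPKM in DMSO. In all 3 the DMSO library was the lowest. Cat, the catalase that breaks down hydrogen peroxide, was the most abundant of the 40 genes, at 606.9 and 542.6 RPKM with TUDCA and 478.1 RPKM in DMSO (limma adjusted p = 0.743).

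The enzymes that also shorten the side chain of bile acid precursors were mixed. Acox2, the oxidase of branched chains, had 62.12 and 62.10 RPKM with TUDCA and 41.6 RPKM in DMSO (log2 difference 0.57 ± 0.22, limma adjusted p = 0.202). Scp2, the sterol carrier protein with thiolase activity, had 270.5 and 192.8 RPKM with TUDCA and 187.5 RPKM in DMSO, so only TUDCA replicate 1 stood clearly apart. Of the 50-base windows of Scp2, 29.7% also stood in its pseudogene Scp2-ps2. Hsd17b4, the other bifunctional enzyme, had 154.5 and 127.5 RPKM with TUDCA and 127.9 RPKM in DMSO. Amacr, the racemase that prepares branched chains for oxidation, had 8.32 and 8.52 RPKM with TUDCA and 8.47 RPKM in DMSO, a log2 difference of -0.01 ± 0.28. For Hsd17b4 and Amacr the DMSO value lay within the range of the TUDCA libraries.

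Among carriers and other peroxisomal proteins, Abcd3, which imports acyl-CoA, had 78.7 and 58.7 RPKM with TUDCA and 48.1 RPKM in DMSO (limma adjusted p = 0.339). Pex11a, which promotes the division of peroxisomes, had 26.4 and 19.5 RPKM with TUDCA and 15.7 RPKM in DMSO (limma adjusted p = 0.445). In both genes TUDCA replicate 1 was the higher of the pair and DMSO the lowest. Slc27a2, a very long chain acyl-CoA synthetase and uptake protein, had 42.5 and 25.8 RPKM with TUDCA and 30.3 RPKM in DMSO. Its TUDCA libraries differed by 0.70 on the log2 scale, the widest gap among the 39 genes, and DMSO lay between them. Acot8, a thioesterase that frees fatty acids from coenzyme A, had 18.1 and 21.8 RPKM with TUDCA and 23.2 RPKM in DMSO, the only peroxisomal gene with both TUDCA libraries under DMSO.

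The 4 genes of entry into mitochondria stood slightly above DMSO in both TUDCA libraries, and none passed. Cpt1a (ENSMUSG00000024900), the carnitine palmitoyltransferase that sets the rate of entry, had 38.6 and 35.7 RPKM with TUDCA and 32.4 RPKM in DMSO (log2 difference 0.19 ± 0.23, limma adjusted p = 0.886). Acsl1, which activates long chains, had 26.8 and 25.7 RPKM with TUDCA and 23.2 RPKM in DMSO. Slc25a20, the carnitine-acylcarnitine translocase, had 29.6 and 32.2 RPKM with TUDCA and 26.9 RPKM in DMSO, and the inner membrane transferase Cpt2 had 66.9 and 72.4 RPKM with TUDCA and 62.4 RPKM in DMSO. These differences, 0.15 to 0.20 on the log2 scale, were smaller than their SE of 0.22 to 0.24.

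The enzymes of the first step of the mitochondrial cycle are split by chain length, and none was called. The acyl-CoA dehydrogenases Acadvl and Acadl, for very long and long chains, had 68.5 and 75.3 RPKM and 90.3 and 88.6 RPKM with TUDCA, against 78.0 and 97.3 RPKM in DMSO. Acadm, for medium chains, had 186.8 and 135.8 RPKM with TUDCA and 174.1 RPKM in DMSO, and Acads, for short chains, had 133.3 and 154.9 RPKM with TUDCA and 142.9 RPKM in DMSO. For Acadm and Acads the DMSO value lay between those of the TUDCA libraries. The subunits of the trifunctional protein, Hadha and Hadhb, had 106.4 and 97.6 RPKM and 39.9 and 34.3 RPKM with TUDCA, against 92.2 and 38.5 RPKM in DMSO. The short-chain hydratase Echs1 had 34.3 and 45.3 RPKM with TUDCA and 36.9 RPKM in DMSO, and the hydroxyacyl-CoA dehydrogenase Hadh had 42.7 and 40.6 RPKM with TUDCA and 32.9 RPKM in DMSO. None of these genes was called (limma adjusted p of 0.7001 to 0.9958).

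The mitochondrial thiolase Acaa2, the counterpart of Acaa1a and Acaa1b, had 106.3 and 118.4 RPKM with TUDCA and 132.6 RPKM in DMSO. This difference of -0.24 ± 0.21 on the log2 scale was the lowest of the mitochondrial genes and did not pass (limma adjusted p = 0.803). Decr1, the mitochondrial reductase for unsaturated chains, had the highest one of the 21 genes. It had 34.9 and 31.1 RPKM with TUDCA and 20.96 RPKM in DMSO (0.63 ± 0.24, limma adjusted p = 0.181). The isomerase Eci1 had 59.2 and 72.2 RPKM with TUDCA and 58.3 RPKM in DMSO. By the mean of both TUDCA libraries, the genes other than Decr1 lay within 0.5 of DMSO on the log2 scale, 20 of 21 or 95.2%, against 88.4% of all genes tested. In TUDCA replicate 1 alone Etfdh, described next, also lay beyond it, at 0.54.

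The electron transfer flavoprotein accepts the electrons of the first step. Its subunits Etfa and Etfb had 104.7 and 87.4 RPKM and 195.2 and 224.5 RPKM with TUDCA, against 79.0 and 206.2 RPKM in DMSO. Etfdh, the dehydrogenase that passes the electrons on to ubiquinone, had 40.7 and 32.0 RPKM with TUDCA and 27.6 RPKM in DMSO (limma adjusted p = 0.641). For Etfa and Etfdh DMSO was the lowest library, and for Etfb it lay between the TUDCA libraries. Of the 50-base windows of Etfb, 44.8% also stood in transcripts of another gene, nearly all in Gm45233.

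Among regulators and acyl transfer enzymes of mitochondria, Pdk4, the kinase that shuts pyruvate out of oxidation and is induced by fasting, had 12.4 and 8.79 RPKM with TUDCA and 9.86 RPKM in DMSO (log2 difference 0.08 ± 0.28, limma adjusted p = 0.979). Crat, the carnitine acetyltransferase, had 33.3 and 32.0 RPKM with TUDCA and 27.9 RPKM in DMSO. The thioesterase Acot2 had 6.95 and 8.87 RPKM with TUDCA and 8.41 RPKM in DMSO. For Pdk4 and Acot2 the DMSO library lay between the TUDCA libraries.

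In the cytosol, Fabp1, the abundant fatty acid binding protein of liver, had 69.1 and 57.6 RPKM with TUDCA and 77.0 RPKM in DMSO, which was the lowest difference of all 39 genes and did not pass (-0.28 ± 0.22 on the log2 scale, limma adjusted p = 0.760). The thioesterase Acot1 was the 1 gene left out by the filter, at 0.328 and 0.363 RPKM with TUDCA and 0.416 RPKM in DMSO. It had 5 and 6 reads with TUDCA and 7 reads in DMSO, as the smallest whole numbers, so a difference was not detectable at this depth. Acot1 and Acot2 were identical at 95.6% of 1236 aligned coding positions, and their sum was 7.28 and 9.23 RPKM with TUDCA and 8.83 RPKM in DMSO.

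**Figure D3:**
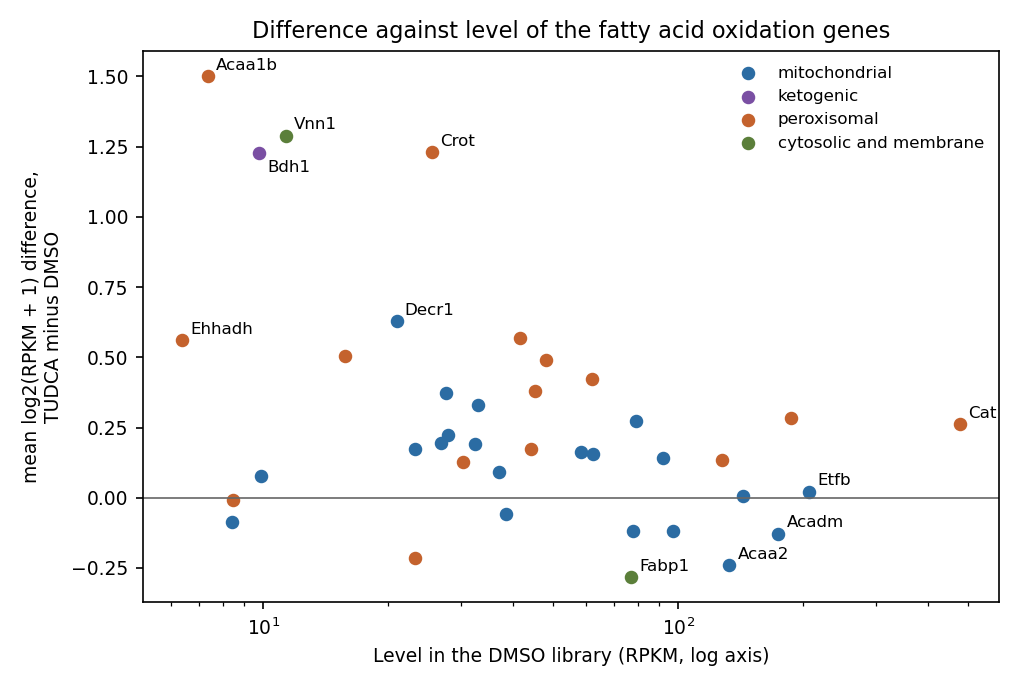
Mean difference in log2(RPKM + 1), TUDCA minus DMSO, against the RPKM in the DMSO library (log axis) for the 39 genes tested, coloured by compartment. The 4 called genes lie between 7.36 and 25.5 RPKM in DMSO, and the genes above 100 RPKM lie between -0.24 and 0.28.

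Levels in the DMSO library spanned from 0.416 RPKM for Acot1 to 478.1 RPKM for Cat, followed by Etfb, Scp2, Acadm and Acads. Of the 4 called genes, 3 were among the less abundant ones, with Acaa1b at 7.36, Bdh1 at 9.77 and Vnn1 at 11.3 RPKM in DMSO. The summed RPKM of the 15 peroxisomal genes was 1558 and 1345 with TUDCA and 1152 in DMSO, and that of the 21 mitochondrial genes was 1458 and 1453 with TUDCA and 1409 in DMSO. The largest parts of the peroxisomal sum were Cat and Scp2, neither of them called. Cat had 606.9 and 542.6 RPKM with TUDCA and 478.1 RPKM in DMSO, and Scp2 had 270.5, 192.8 and 187.5 RPKM in the same order.

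The median log2 difference was 0.38 over the 15 peroxisomal genes (0.48 and 0.28 in TUDCA replicates 1 and 2) and 0.14 over the 21 mitochondrial genes (0.10 and 0.13), beside 0.04 over all genes tested (0.06 and 0.02). Both TUDCA libraries lay above DMSO for 11 of 15 peroxisomal and 11 of 21 mitochondrial genes, or 73.3% and 52.4%, against 40.5% of all genes. Both lay below DMSO for 1 peroxisomal and 3 mitochondrial genes, or 6.67% and 14.3%, against 30.4% of all genes. A mean difference of at least 0.5 was found for 5 peroxisomal genes and 1 mitochondrial gene, or 33.3% and 4.76%, against 7.78% of all genes. Bdh1 is counted in neither group. These are descriptions of genes chosen with earlier results known, and the difference between the compartments was not tested. After median centring the medians were 0.31 and 0.068, beside -0.04 over all genes, and genes above DMSO in both TUDCA libraries numbered 10 of 15 and 9 of 21, against 3541 of all 11300. Genes below DMSO in both then numbered 2 of 15 and 5 of 21, against 4487 of all 11300.

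**Figure D4:**
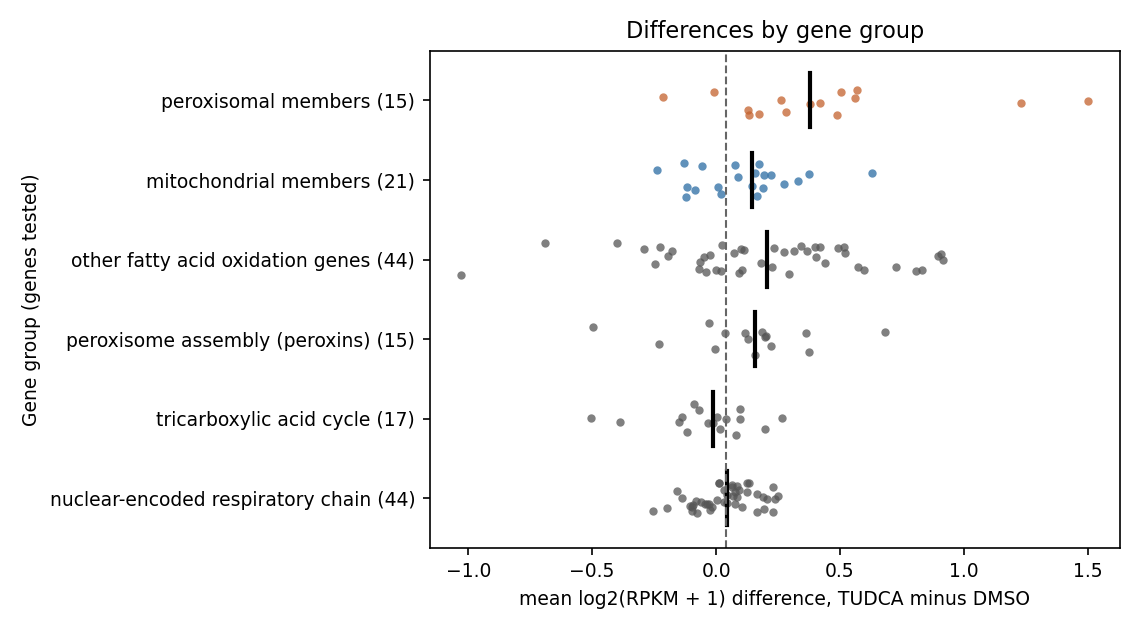
Mean difference in log2(RPKM + 1), TUDCA minus DMSO, of each tested gene (dots, spread vertically only to be visible) in the peroxisomal and mitochondrial genes and in 4 further gene lists; black bars are medians and the dashed line is the median of all genes tested, 0.04. The median of the peroxisomal genes is 0.38, that of the mitochondrial genes 0.14 and that of tricarboxylic acid cycle genes -0.01.

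A list of 51 further genes of fatty acid handling, of which 44 were tested, held 3 genes called higher, 2 called lower and 39 not called (median 0.20). The calls are 6.82% higher and 4.55% lower, against 1.77% and 0.876% of all genes. Both TUDCA libraries lay above DMSO for 54.5% of the 44 genes and below it for 20.5%, against 40.5% and 30.4% of all genes. This list too was chosen with earlier results of these data known. The genes called higher are enzymes or a kinase of fuel oxidation, and those called lower are lipid droplet proteins. Acad11, an acyl-CoA dehydrogenase, had 32.7 and 25.4 RPKM with TUDCA and 14.9 RPKM in DMSO (limma adjusted p = 0.0131). Hacl1, the peroxisomal lyase of alpha-oxidation, had 38.5 and 25.5 RPKM with TUDCA and 16.4 RPKM in DMSO (limma adjusted p = 0.0132). Pdk2, a relative of Pdk4, had 37.5 and 39.5 RPKM with TUDCA and 21.2 RPKM in DMSO (limma adjusted p = 0.0222). All 3 calls were lost with median centring (adjusted p = 0.0517, 0.0563 and 0.0971) and with quantile normalization (adjusted p = 0.0661, 0.0799 and 0.0644). Hacl1 and Pdk2 were also lost without the variance trend (adjusted p = 0.0511 and 0.0912), and Pdk2 with voom (adjusted p = 0.0908).

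The 2 genes called lower coat lipid droplets, the store from which fatty acids are released. Plin2 had 1221 and 1540 RPKM with TUDCA and 2213 RPKM in DMSO (log2 difference -0.69 ± 0.20, limma adjusted p = 0.0204), a call lost with median centring and without the variance trend (adjusted p = 0.0958 and 0.247). Cidec, which promotes the fusion of droplets, had 4.47 and 3.38 RPKM with TUDCA and 8.99 RPKM in DMSO (-1.03 ± 0.29, limma adjusted p = 0.0231). Without the filter neither was called (adjusted p = 0.5998 and 0.5653).

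Among genes that serve the compartments at large, none of 15 peroxins, which assemble peroxisomes, was called, and their median log2 difference was 0.16. None of 17 tricarboxylic acid cycle genes was called (median -0.01), nor any of 44 nuclear-encoded subunits of the respiratory chain (median 0.04, range -0.25 to 0.25). Both TUDCA libraries lay above DMSO for 66.7% of peroxins, 23.5% of cycle genes and 43.2% of respiratory chain subunits. They lay below DMSO for 13.3%, 29.4% and 13.6%, against 40.5% above and 30.4% below over all genes. Over all genes limma called 2.65%. By unadjusted p below 0.05, limma had 2 of the 15 peroxins, 1 of the 17 genes of the cycle and 0 of the 44 respiratory chain subunits, against 10.8% of all genes.

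Promoter sequence was examined because some members were called higher with TUDCA. Windows of 300 bases, 250 before to 50 after the start, were found in RefSeq (GRCm38.p6) for 34 of the 40 genes, 3 of the called genes among them. They were searched on both strands for a pair of AGGTCA units in the same direction with 1 base between them. Such an element is bound by several nuclear receptors, lipid-sensing ones among them, so a match does not name a receptor. Of the 12 letters, 2 were allowed to differ. Such a pair stood in the windows of 6 of 34 genes (Acox2, Cat, Echs1, Etfa, Fabp1 and Slc25a20), or 17.6%, against 4.4% of the 27025 genes of the table. None of these 6 genes was called, where limma called 2.65% of all genes tested, and the windows of Acaa1b, Crot and Bdh1 held no such pair. With only 3 called genes among the 34, no relation between the pair and the calls can be read from this. None was tested. A match is a description of letters and not a site, and no match says only that the letters are not in this window.

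The 250 bases before the start are shown for Acaa1b and its uncalled relative Acaa1a, for Crot as the most abundant called gene, and for Fabp1, whose window holds the closest match, with 1 letter differing and its first base 67 bases before the start; capitals mark the match. The positions are chr9:119157094-119157343 (minus strand) for Acaa1b, chr9:119341044-119341293 (plus strand) for Acaa1a, chr5:8997147-8997396 (minus strand) for Crot and chr6:71199629-71199878 (plus strand) for Fabp1.
Acaa1b: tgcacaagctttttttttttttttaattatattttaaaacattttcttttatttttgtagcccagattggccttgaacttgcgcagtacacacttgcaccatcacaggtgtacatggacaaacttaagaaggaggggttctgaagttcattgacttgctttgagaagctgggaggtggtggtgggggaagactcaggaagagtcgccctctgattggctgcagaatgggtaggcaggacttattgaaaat
Acaa1a: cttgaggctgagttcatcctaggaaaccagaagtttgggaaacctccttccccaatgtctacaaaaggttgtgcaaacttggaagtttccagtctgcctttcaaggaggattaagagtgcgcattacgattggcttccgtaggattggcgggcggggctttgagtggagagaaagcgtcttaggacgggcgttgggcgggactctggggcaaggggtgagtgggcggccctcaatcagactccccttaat
Crot: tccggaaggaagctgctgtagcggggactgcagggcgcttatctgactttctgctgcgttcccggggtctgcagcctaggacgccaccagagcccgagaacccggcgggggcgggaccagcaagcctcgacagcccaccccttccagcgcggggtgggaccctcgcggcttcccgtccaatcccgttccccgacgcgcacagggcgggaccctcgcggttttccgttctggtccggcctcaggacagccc
Fabp1: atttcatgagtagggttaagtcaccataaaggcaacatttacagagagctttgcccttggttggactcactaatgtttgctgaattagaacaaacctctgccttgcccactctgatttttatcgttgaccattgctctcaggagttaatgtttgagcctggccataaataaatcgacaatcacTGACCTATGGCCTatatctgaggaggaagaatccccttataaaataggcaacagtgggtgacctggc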

How the data were processed

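The authors deposited RPKM values, 1 table per library. Tools named, without roles, in the submitters' processing notes are HTSeq, Bowtie2, TopHat2 2.0.7 and CASAVA. Genome build, annotation and strand setting: not given in the sources used here. The positions printed are those of RefSeq promoter windows (GRCm38.p6) and of GENCODE M21 coding sequences, not of the deposited tables. Symbols came from a reference table of mouse gene names, by Ensembl identifier, and matched 32897 of 37620 identifiers, all 40 members among them.

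Whole reads were recovered from the RPKM steps (within a relative 1e-09 for all 19146 genes above 0). They are the smallest that fit and sum to 95.68 to 95.85% of the read totals, so a gene may hold a multiple of them.

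The 11300 genes that averaged 1 RPKM or more were fitted as log2(RPKM + 1) with limma 3.58.1 in R 4.3.3 (lmFit, eBayes with trend) and adjusted by Benjamini-Hochberg. The prior degrees of freedom were estimated as infinite, and a gene whose TUDCA libraries differ widely has too small an SE. Tested on simulated data, the fit recovered most changed genes but called more unchanged genes than its threshold allows. The simulated reads had the depths and levels of these libraries, but the same assumed spread for every gene. The adjusted p-values of the real data may therefore be too small. All 40 members were named. Full statistics were due for members called or past the rule of size and for Cpt1a, and from 4 pathway lists the called genes were named, at most 6 a list. Members and lists were chosen with earlier results of these data known. Alternatives tried were voom, robust estimation, no trend, median centring, quantile normalization, TPM rescaling, a stricter filter (5 RPKM) or none, a pseudocount of 0.1 and single libraries. Shared 50-base windows were counted on both strands of GENCODE M21 transcripts.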

Additional observations from a re-analysis of the deposited data

How the results depend on the processing

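The 4 called genes were called under all 8 alternatives that kept a filter, with adjusted p from 5.11e-07 to 0.00773. These were a filter at 5 RPKM, TPM rescaling, quantile normalization, median centring, no trend, robust estimation, a pseudocount of 0.1 and voom. Without the filter 0 members were called higher in place of 4, and over all genes 0 higher and 0 lower in place of 200 and 99. The cause was not tested. Members at least 2-fold higher in both TUDCA libraries numbered 2 to 4 over the alternatives that rescale or shift values, and without 1 TUDCA library 3 or 4. Over all genes, the count 2-fold lower in both libraries was 32, against 21 at a filter of 5 RPKM, 72 without a filter and 57 with a pseudocount of 0.1, which also moved the count 2-fold higher to 168 in place of 87. In a single TUDCA library the counts over all genes were 123 to 215 higher and 65 to 69 lower, since only 1 library had to pass. The median log2 difference of the mitochondrial genes was 0.14, 0.068 after median centring, and 0.10 to 0.13 in single libraries. That of the peroxisomal genes was 0.28 to 0.48 in single libraries. Among single members, the calls lost were those 4 without the filter, and none of the called differences changed sign. Leaving out the DMSO library leaves no comparison. No paired analysis was possible because the single DMSO library carries no replicate number. Reads of close relatives and overlapping genes limit Acaa1b and Etfb most, and depth limits Acot1.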
